A study of Ovis aries with 18 samples.

Results

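PFKL, which encodes the liver-type subunit of phosphofructokinase, was 1 of the 5810 genes with counted SNPs in fetal perirenal adipose tissue (PRAT), and it carried 19 of the 24355 SNPs. The members were all SNPs that the deposited table assigns to PFKL, and their reads of the reference and the alternate allele were taken in each animal called heterozygous (0/1). This gave 165 values from 17 of the 18 animals, and 1 animal, RS929, was heterozygous at none of the 19 SNPs. PFKL was chosen by the allelic imbalance (AI) of these same reads. Shares, directions and calls of AI are therefore given as a description, and nothing is read from a test of them. The tests of PFKL that are read as such concern the level of both alleles together.

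Phosphofructokinase converts fructose 6-phosphate to fructose 1,6-bisphosphate, the committed and tightly regulated step of glycolysis. The enzyme is a tetramer of liver, muscle and platelet type subunits, encoded by PFKL, PFKM and PFKP, in proportions that differ between tissues. Perirenal fat of the fetal lamb is a brown fat depot in which the uncoupling protein UCP1 releases energy as heat around birth, and glucose is one of the fuels of brown fat.

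The animals were pure bred merino sheep fetuses of wild type genotype that received no treatment, 16 females and 2 males, sampled at 132 days of gestation. Each sample was the PRAT of 1 singleton fetus. All were paternal half-siblings, with no relation between their dams. The reads counted over all SNPs numbered from 2970824 in RS902 to 5334585 in RS917, with a median of 4486796. One female stood apart from her sex label: RS929 was called heterozygous at 29.1% of the 244 SNPs on chromosome X, compared with 54.1% in the next lowest female and 32.4% and 25.4% in the males. Results that include RS929 are given with and without it where that changes a call.

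The PFKL SNPs spanned 19659 bp of chromosome 1 (Oar v3.1), from position 262412142 to position 262431801. The table annotates 14 of them as synonymous variants of the coding sequence and the last 5, from position 262431636 onwards, as 3′ UTR variants, so none was annotated as changing the protein. At the heterozygous values the depth of both alleles was between 57 and 1440 reads. Over heterozygous and homozygous values together the median depth was 463. The 95% Wilson intervals below cover counting error only. Reads spanning several of these SNPs were counted at each, and the SNPs of an animal are repeated measurements of the same pair of PFKL alleles, not replicates.

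With reads summed over heterozygous animals, the reference allele was higher at 17 SNPs and the alternate allele at 2. By the likelihood ratio test at an unadjusted P-value under 0.05, all 19 SNPs were called, where 45% of the 24244 SNPs tested in all genes were called. Those called with the reference allele higher made up 33.8% of all tested SNPs, and those with the alternate allele higher 11.1%. Since these counts chose the gene, nothing is read from that comparison. The summed reference share was highest at positions 262418637 and 262418607, at 0.877 and 0.864 with 5 heterozygous animals each. It was lowest at 262429202 and 262430997, at 0.238 and 0.262 with 6 animals each, and at the other 15 SNPs it lay between 0.635 and 0.825. Over the 19 SNPs the median distance from an equal share was 0.173, and over all SNPs it was 0.0339.

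The sums hid large differences between animals. Of the 165 values, 111 had more reference reads and 54 more alternate reads. In 27 values more than 0.8 of the reads came from one allele, and in 35 the share was within 0.05 of equal. At the PFKL SNPs the dispersion of the counts between animals, which would be 1 if they differed by sampling of reads only, was between 23.0 and 260 with a median of 52.6, whereas its median over all SNPs was 1.41. For a given spread of shares the dispersion rises with read depth. Here and below it therefore does not compare the spread of shares between SNPs of unlike depth. At 262427435, where the dispersion was highest, the reference share ran from 0.243 to 0.898 over 8 animals, a mean of 0.644 ± 0.246 (SD, n = 8).

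Within most animals the degree of AI varied less from SNP to SNP. In RS937 the allele with more reads held between 0.878 and 0.924 of the reads at its 11 heterozygous SNPs, with a median of 0.903. In RS926 the range was 0.857 to 0.919 with a median of 0.893. These were the animals with the strongest AI, and in both the reference allele was higher at 9 SNPs and the alternate allele at 2. The median share of the higher allele was 0.800 in RS947, 0.781 in RS933, 0.762 in RS919, 0.753 in RS910, 0.751 in RS969 and 0.719 in RS918. It was between 0.562 and 0.634 in RS943, RS902, RS953, RS903, RS920 and RS930. The widest range was that of RS902, from 0.505 to 0.760 over its 16 heterozygous SNPs, and that of RS943 was 0.517 to 0.670 over 7. In RS902 the reference allele was higher at 8 SNPs and the alternate allele at 8, with reference shares from 0.368 to 0.760, and in RS943 at 1 and 6, with reference shares from 0.330 to 0.632. The median share of the higher allele was 0.529 in RS905, 0.523 in RS940 and 0.515 in RS917. The PFKL alleles of these 3 fetuses thus contributed nearly equal reads.

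**Figure D1:**
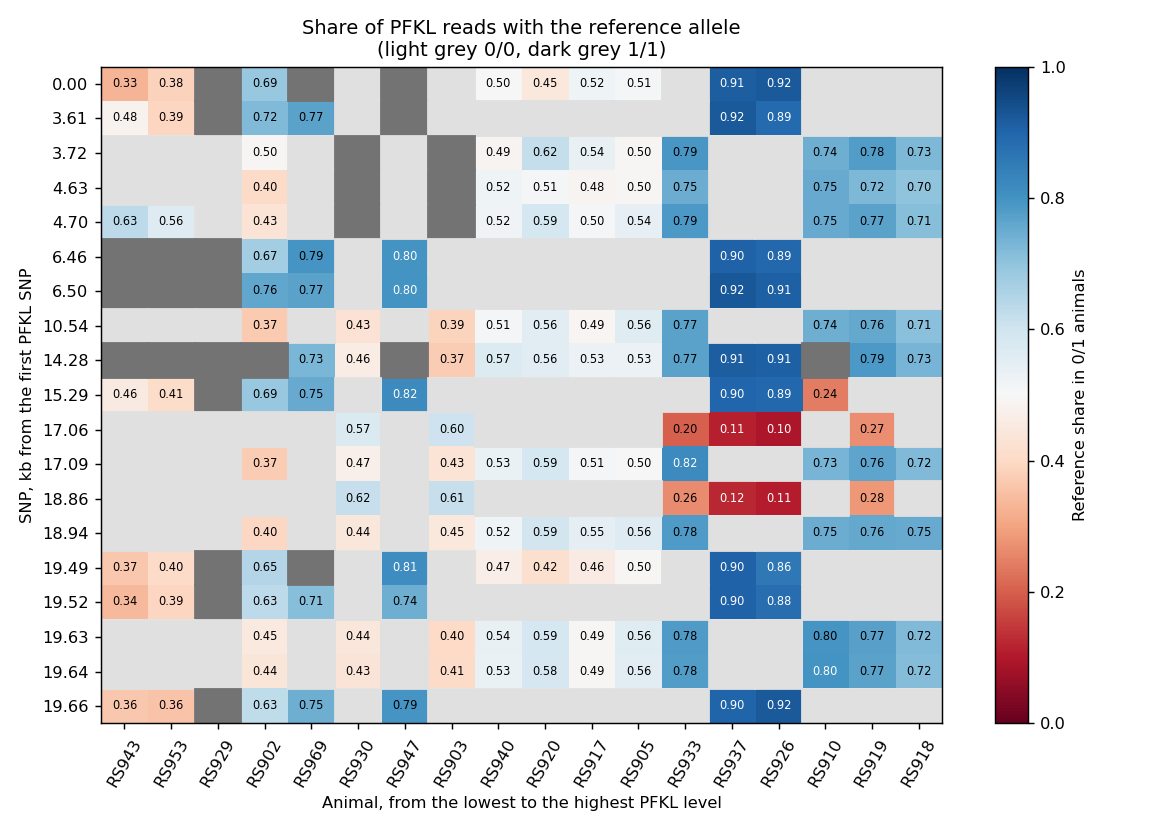
Share of PFKL reads carrying the reference allele at each of the 19 SNPs (rows, distance in kb from the first SNP) in each fetus (columns, ordered from the lowest to the highest PFKL level), with the number printed for heterozygous animals and homozygous calls in grey. Most columns hold a narrow range of imbalance, RS902 the widest, and it was strongest in RS937 and RS926 with medians of 0.903 and 0.893 for the higher allele, and the colour changes side within many columns, among them those of RS937, RS926 and RS902.

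The 19 SNPs fell into 11 different sets of genotype calls over the 18 animals. The largest set held 5 SNPs. The calls at 262422680, 262429229, 262431084, 262431770 and 262431777 were equal in every animal, and 4 further pairs of SNPs shared their calls. Members of a set therefore repeat the same comparison of alleles. Where they lie within 1 read of 100 bp they can count the same reads, as at 262431770 and 262431777, which are 7 bp apart.

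At the pair 262418607 and 262418637, which lie 30 bp apart, every heterozygous animal had more reference reads. At 262418607 RS902 had 97 reference and 47 alternate reads, a reference share of 0.674 (0.593 to 0.745). RS969 had 285 and 74 reads, a share of 0.794 (0.749 to 0.832), and RS947 had 232 and 58, a share of 0.800 (0.750 to 0.842). RS926 had 795 and 95 reads, a share of 0.893 (0.871 to 0.912), and RS937 had 1031 and 109, a share of 0.904 (0.886 to 0.920). The interval of RS902 did not overlap those of the other 4 animals, and the intervals of RS926 and RS937 lay above those of RS947 and RS969. At 262418637 RS902 did not stand apart, with a share of 0.760 (0.685 to 0.822) that overlapped the intervals of RS969 and RS947. The mean over the 5 animals at 262418607 was 0.813 ± 0.0932 (SD, n = 5), and at 262418637 it was 0.832 ± 0.0777 (SD, n = 5). Of all tested SNPs, 1.04% lay as far from an equal share in summed reads as 262418607, and 0.763% as far as 262418637.

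The alternate allele was the higher one at 262429202 and 262430997, which had equal calls in all animals. At 262429202 the reference share was 0.0968 in RS926, 0.110 in RS937, 0.201 in RS933 and 0.267 in RS919. In the other heterozygous animals, RS930 and RS903, it was 0.571 and 0.603. The excess of alternate reads at this SNP thus came from 4 animals, and in the remaining pair the reference allele was higher, with intervals of 0.523 to 0.617 and 0.553 to 0.651. At 262430997 the order was similar, from 0.108 in RS926 to 0.283 in RS919. Apart from these SNPs, the same 4 animals had reference shares of 0.725 or above wherever they were heterozygous. RS926 and RS937, for example, had 0.918 and 0.914 at 262412142. RS910 showed the same change of side at another SNP, with 330 reference and 1029 alternate reads at 262427435, a share of 0.243, against shares of 0.732 to 0.800 at its other 8 heterozygous SNPs.

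At 262429229, the SNP of the largest set with the most reads, 11 animals were heterozygous and the reference share ran from 0.374 in RS902 to 0.817 in RS933. The highest 4 were RS918 (0.719), RS910 (0.732), RS919 (0.762) and RS933 (0.817). RS905, RS917, RS940 and RS920 had 0.501, 0.507, 0.533 and 0.586, and RS930, RS903 and RS902 had 0.475, 0.432 and 0.374. The 4 animals at 0.719 or above were all homozygous for the reference allele at the first SNP, 262412142, whereas RS905, RS917, RS920 and RS940 were all heterozygous there. These 8 animals had equal calls at 262418607 (0/0) and 262415861 (0/1), so that the same calls at these SNPs went with reference shares at 262429229 from 0.501 to 0.817. The PFKL level of both alleles was between 3884 and 5231 in the first 4 and between 1759 and 2687 in the second 4, in CPM as defined in the next paragraph. RS903 and RS930 did not follow this split by the first SNP. They were also 0/0 at 262412142 and heterozygous at 262429229, but were 1/1 at 262415861, with shares of 0.432 and 0.475 and levels of 1644 and 1525 CPM. The split was noticed in the data and was not tested.

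The PFKL level was taken as the reads of both alleles at its 19 SNPs per 1000000 reads at all SNPs of the animal (CPM), which uses homozygous animals as well. It ranged from 659 CPM in RS943 to 5231 CPM in RS918, a ratio of 7.94, with a mean of 2446 ± 1482 (SD, n = 18) and a median of 1763. The lowest 4 animals were RS943 (659), RS953 (754), RS929 (818) and RS902 (862). The highest 6 were RS933 (3884), RS937 (3900), RS926 (4162), RS910 (4253), RS919 (4389) and RS918 (5231). Between them lay RS969 (1487), RS930 (1525), RS947 (1582), RS903 (1644), RS940 (1759), RS920 (1767), RS917 (2668) and RS905 (2687). No animal lay between 2687 and 3884, and in each of the highest 6 the higher allele held a median of at least 0.719 of the reads. RS947 and RS969, at 0.800 and 0.751, had AI of that size at levels of 1582 and 1487 CPM.

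This spread was large for the tissue. The coefficient of variation of PFKL was 60.6%, compared with a median of 13.6% over the 4106 genes with a mean of at least 100 reads per animal, and 17 genes (0.414%) had a higher value. In a bulk sample, fewer cells that express PFKL and less PFKL RNA per cell cannot be told apart.

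Whether the level of both alleles followed genotype was tested at each set of calls, with the SNP of the largest variance in allele number, 262418607, as the main one. The 10 animals called 0/0 there had levels from 1525 to 5231 with a median of 2678, and the 5 heterozygous animals from 862 to 4162 with a median of 1582. The 3 animals called 1/1 had 659, 754 and 818. The 1/1 animals all lay below every other animal, while the 0/1 and 0/0 animals overlapped over most of their range.

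Per copy of the alternate allele the PFKL level differed by -0.84 ± 0.24 (SE, n = 18) on the log2 scale, a factor of 0.560, with an unadjusted P-value of 0.0024 by the quasi-likelihood test of edgeR. PFKL was the 8th smallest P-value of 5810 genes tested against this genotype. With Benjamini-Hochberg adjustment over all of these genes the P-value was 0.998, and 0 genes were called (0%), where 178 genes had an unadjusted P-value under 0.05. DESeq2 also called 0 genes and gave PFKL an adjusted P-value of 0.494. The geometric mean level was 3.65 times higher in the 0/0 than in the 1/1 animals. On the log2 scale the difference of 1/1 from 0/0 animals was -1.87. This difference was computed after the levels had been seen and is given with no test. Heterozygous and 0/0 animals alone differed by -0.29 ± 0.37 (SE) with an unadjusted edgeR P-value of 0.445.

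A second fit, chosen after the data were seen, compared the level of each gene with genotype at its own SNPs, over 22086 SNPs with limma. At 3.88% of these SNPs the adjusted P-value was under 0.05, and 17.2% had an unadjusted P-value under 0.05. PFKL passed at 262418607 and 262418637, which have equal calls, with -0.84 ± 0.21 (SE, n = 18) per alternate allele on the log2 scale and an adjusted P-value of 0.0258 by limma, and 2.42% of SNPs had a smaller P-value. At 262426420 the difference was -1.20 ± 0.36 (SE) with a limma adjusted P-value of 0.0692, and at the remaining PFKL SNPs the adjusted P-value was at least 0.113. The call rested on each of the 3 animals called 1/1. Without RS929 the adjusted limma P-value at 262418607 was 0.0693, without RS953 0.0711 and without RS943 0.0832, and leaving out any other animal kept it between 0.0101 and 0.0434.

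Genotype calls come from the same RNA reads as the level. At 9 PFKL SNPs all 3 of these 1/1 animals were called 0/0, so that their reads carried the reference allele. The level at these SNPs gave -0.83 ± 0.24 (SE) per alternate allele at 262418607. The edgeR P-value was 0.0025 unadjusted and 0.997 after adjustment, so PFKL was not called by this fit. As a description, the low level of the 1/1 animals was also seen where their reads carried reference alleles.

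**Figure D2:**
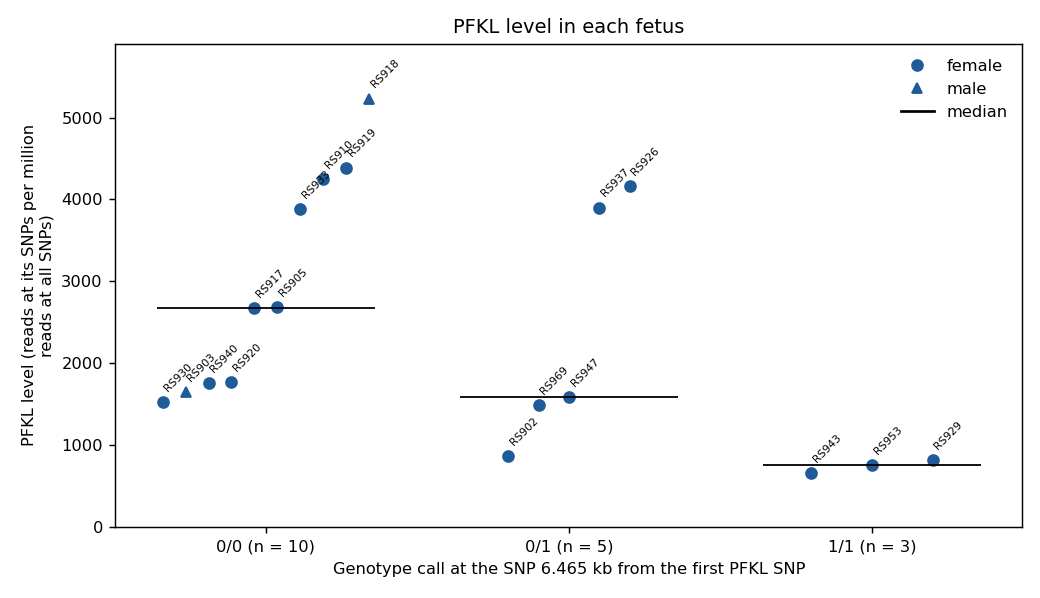
PFKL level (CPM, vertical axis) in each fetus by genotype call at position 262418607, with circles for females, triangles for males and a line at the median. The 3 animals called 1/1, at 659 to 818, lie below all others, and the 0/1 and 0/0 animals overlap.

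The reads of each allele per copy at 262418607, in CPM, describe the same data allele by allele. In the 5 heterozygous animals the alternate allele gave 15.05 to 25.4, with a median of 16.2. In the 3 animals called 1/1 it gave 17.05, 19.6 and 25.2 per copy, taking 2 copies per animal. The reference allele gave 32.7, 60.2, 62.3, 198 and 212 in the heterozygous animals and 44.9 to 147 per copy in the 10 animals called 0/0, with a median of 72.6. No alternate copy at 262418607 reached the lowest reference copy. At its partner 262418637 the alternate copies reached 22.2 and the reference copies began at 37.4. The ranges overlapped at every other PFKL SNP. At 262431665, for example, reference copies began at 5.95 and alternate copies reached 12.4. The reference copies at 262418607 differed from one another by far more than the alternate copies did. The values of the 0/0 animals are averages over both copies, and those of the 0/1 animals are single copies, so their highest values cannot be compared.

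**Figure D3:**
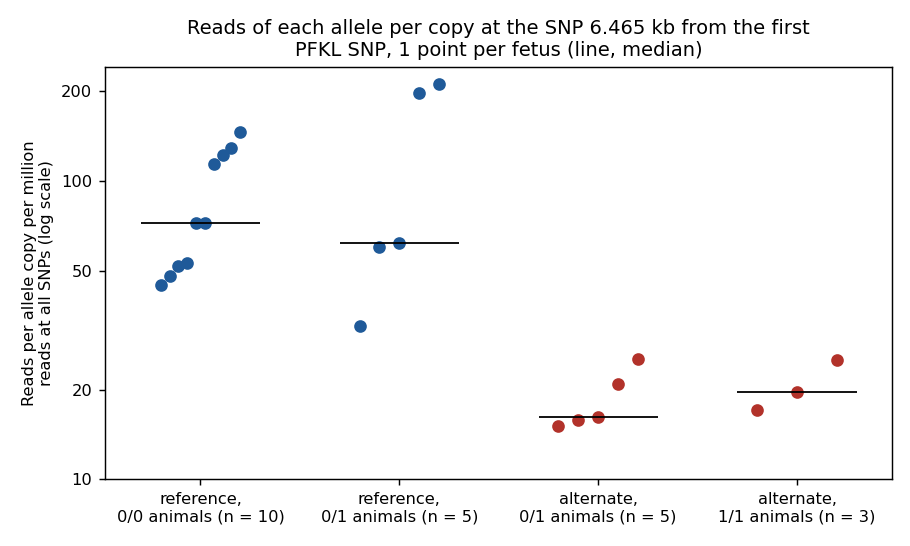
Reads per allele copy at position 262418607 in CPM (vertical axis, log scale), with 1 point per fetus and a line at the median, for the reference allele in 0/0 and 0/1 animals and the alternate allele in 0/1 and 1/1 animals. The alternate copies lie between 15.05 and 25.4 and the reference copies between 32.7 and 212.

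The heterozygous animals at 262429202 had the alternate allele higher in 4 of 6 animals. It gave 186 to 234 CPM in RS933, RS919, RS937 and RS926, and 39.1 and 36.9 in RS930 and RS903. The reference allele in these 6 animals gave 24.2 to 69.2, and in the 12 animals called 0/0 it gave 18.8 to 159 per copy with a median of 49.99, as an average over both copies.

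At the other sets of calls the edgeR difference per alternate allele ran from -1.01 ± 0.38 (SE) at 262426420 to 0.68 ± 0.38 (SE) at 262429202, with edgeR P-values for PFKL of 0.740 or higher after adjustment over genes. Unadjusted edgeR P-values for PFKL were 0.0105 at 262412142, 0.0110 at 262431636, 0.0154 at 262426420, 0.0267 at 262431665 and 0.0313 at 262415750, each with a lower level per alternate allele. Without RS929 they were 0.0344, 0.0416, 0.0410, 0.121 and 0.113 in the same order, and at 262418607 the P-value was 0.0117. At the other 5 sets they were 0.0900 or higher. At 262416839 the sign of the difference turned, from -0.18 to 0.11, when only 0/1 and 0/0 animals were compared.

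Sex was the other label that differed between animals. The males had PFKL levels of 1644 (RS903) and 5231 (RS918), which are the eighth lowest and the highest of the 18, and the females 659 to 4389 with a median of 1763. The groups overlapped. The difference of males from females was 0.56 ± 0.59 (SE) on the log2 scale, with a 95% interval of -0.68 to 1.81 and an adjusted edgeR P-value of 0.990, and 0 of 5810 genes were called by sex with edgeR (0%), where 263 had an unadjusted P-value under 0.05 and DESeq2 called 3. Without RS918 the difference was -0.54 and without RS903 it was 1.18, so its sign depended on 1 male.

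Reads of the other allele were also counted in homozygous animals. Genotypes were called from these same reads, so an animal called homozygous has few of them through the calling itself. Their share therefore cannot show how cleanly the alleles were counted. Over 177 homozygous values at the PFKL SNPs, 108 of 93453 reads (0.116%) carried the allele the animal was not called for. Among animals called 0/0 the highest share was at 262418607, where 37 of 7605 reads (0.487%) were alternate reads, and 9 of the 10 animals had at least 1. In RS937, the heterozygous animal with the smallest share of alternate reads at 262418607, 109 of 1140 reads were alternate reads. Among animals called 1/1 the highest share was at 262427435, with 2 of 209 reads (0.957%) in 1 animal.

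Genes beside PFKL were compared to show how far the AI extended. In the RefSeq annotation of the ARS-UI_Ramb_v3.0 assembly, used here for gene order only, PFKL lies between AIRE and CFAP410 on chromosome 1. Within 500000 bp of the outermost PFKL SNPs, 7 genes had counted SNPs. The nearest was C21orf2, 21780 bp away, with 3 of 4 SNPs called and summed reference shares of 0.521 to 0.567. C21orf33, 171854 bp away on the other side, had 1 SNP, a missense variant, with a summed share of 0.747 and a mean of 0.742 ± 0.0927 (SD, n = 8). PTTG1IP had 3 of 5 SNPs called, at shares of 0.507 to 0.578, and PWP2 (4 SNPs), RRP1 (2 SNPs), TRAPPC10 and FAM207A (1 SNP each) had none called. The dispersion between animals was 1.95 at the C21orf33 SNP and between 0.195 and 2.86 at those of C21orf2. These values were below the lowest PFKL value of 23.0, at 262418607, but depth differed. The C21orf33 SNP had 357 reference and 121 alternate reads in heterozygous animals, and 262418607 had 2440 and 383. The SD of shares was 0.0927 at the C21orf33 SNP, 0.0256 to 0.0966 at those of C21orf2 and 0.0932 at 262418607.

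**Figure D4:**
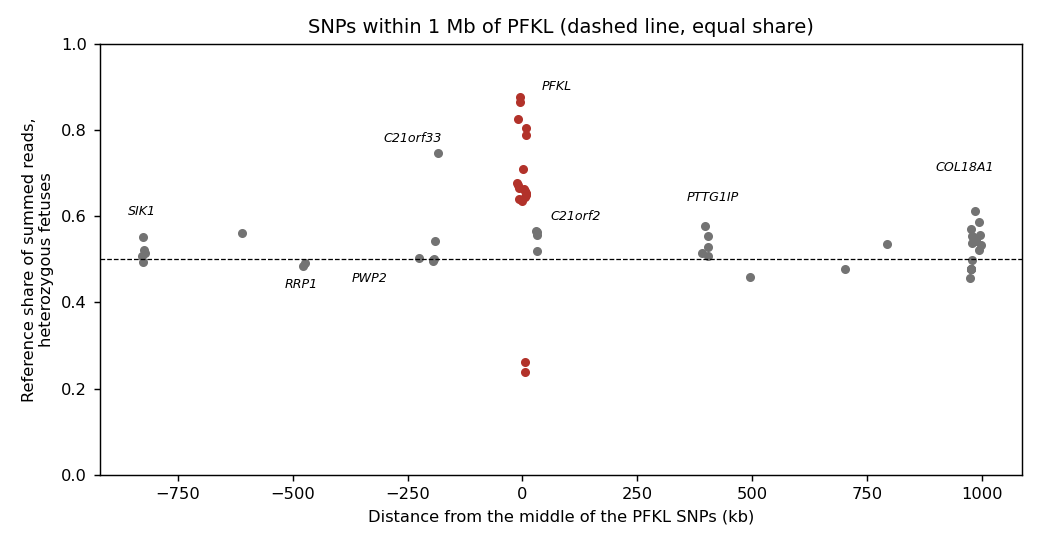
Reference share of reads summed over heterozygous fetuses (vertical axis) at each SNP within 1 Mb of PFKL, by distance from the middle of the PFKL SNPs in kb. The PFKL SNPs (red) range from 0.238 to 0.877, and apart from C21orf33 at 0.747 the grey SNPs of other genes lie between 0.457 and 0.613.

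In the edgeR fit on the allele number at 262418607, C21orf2 differed by -0.15 ± 0.07 (SE, n = 18) per alternate allele with an unadjusted P-value of 0.0445, and C21orf33 by -0.43 ± 0.22 (SE) with 0.0666. Neither passed adjustment over all genes, where the edgeR P-value was 0.998 for both. The other 5 neighbours had unadjusted P-values of 0.214 or higher.

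The levels most like that of PFKL over the 18 animals, by Spearman correlation among 4105 other genes, were those of PCK2, the mitochondrial phosphoenolpyruvate carboxykinase (rho = 0.695), the neighbour C21orf2 (0.676), the mitochondrial ribosomal protein gene MRPL14 (0.672), the deubiquitinase gene OTUB1 (0.670) and WRAP73 (0.633). These values are descriptive. All points share the libraries and the total used for scaling, and the ranks were searched over all genes.

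A list of 66 genes of glycolysis, gluconeogenesis and their regulators held 30 genes with a counted SNP. Besides PFKL, 29 genes had 121 SNPs, of which 68 (56.2%) were called, 35 with the reference and 33 with the alternate allele higher, beside the 45% called over all SNPs. Their median distance from an equal share, at the SNP of each gene with the most heterozygous reads, was 0.0439, and 21 of the 29 lay within 0.05 of equal. PFKL had 0.209 on that measure, at 262426420, and ranked 3 of 30, after GYS1 and FBP2.

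Of the other subunits of the enzyme, PFKM had 0 of 3 SNPs called and a summed reference share of 0.496 over 14 animals at its most read SNP. PFKP had 2 of 4 called, 1 in each direction, and a share of 0.570 over 8 animals. FBP2, a fructose bisphosphatase that catalyses the reverse reaction, had all 4 SNPs called, with summed shares from 0.141 to 0.884 and 0.848 at its most read SNP. There the mean was 0.834 ± 0.0833 (SD, n = 17) with a dispersion of 7.70. PFKFB3 and PFKFB4, whose products set the level of the phosphofructokinase activator fructose 2,6-bisphosphate, had 0 of 2 and 1 of 5 SNPs called and shares of 0.544 and 0.526.

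Among the rest of the list, the gene farthest from an equal share was GYS1, muscle glycogen synthase, with a summed share of 0.867 and a mean of 0.859 ± 0.0405 (SD, n = 9). Its dispersion was 1.21. Pyruvate carboxylase (PC) followed at 0.391, hexokinase 1 (HK1) at 0.407, the glucose 6-phosphate transporter SLC37A4 at 0.573, pyruvate dehydrogenase kinase 4 (PDK4) at 0.431 and glycogen phosphorylase PYGB at 0.565. The nearest to equal were lactate dehydrogenase B (LDHB) at 0.502, aldolase A (ALDOA) at 0.503 and pyruvate kinase (PKM) at 0.503. PDK4, at 34.2, had the next highest dispersion at these SNPs after the 115 of PFKL at 262426420.

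**Figure D5:**
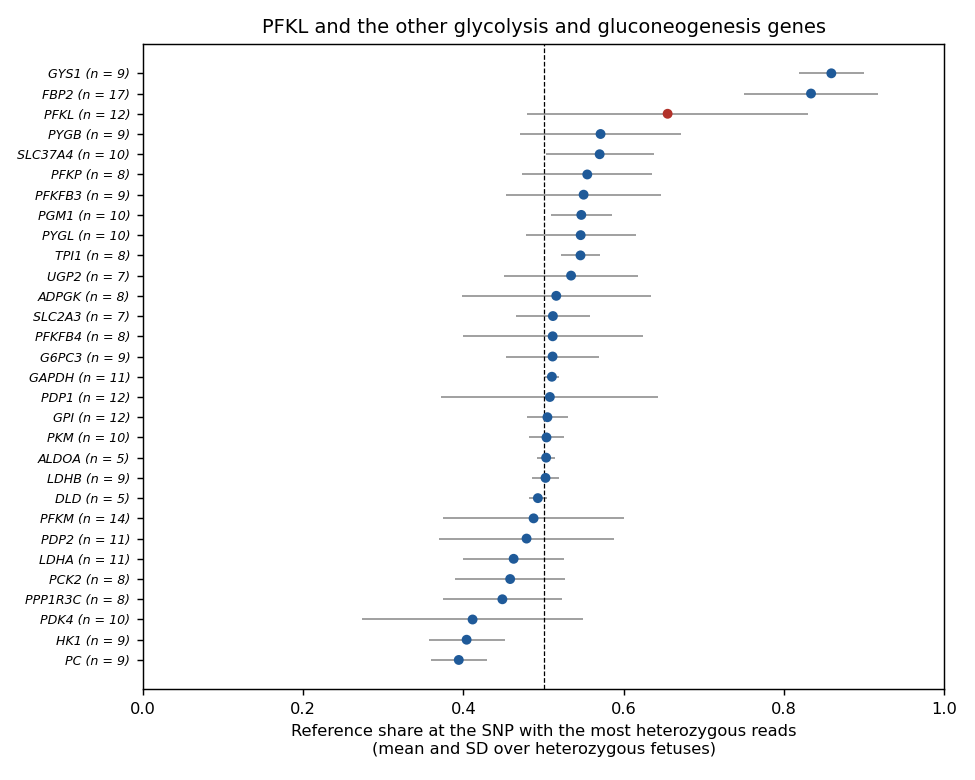
Reference share at the SNP with the most heterozygous reads in PFKL (red) and the other 29 listed genes with a counted SNP, as mean and SD over the n heterozygous fetuses given beside each name. GYS1 and FBP2 lie farthest from the dashed line of equal shares, and the bar of PFKL, 0.655 ± 0.175, is the longest.

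Against the genotype at 262418607, where PFKL itself was not called by this fit, none of the other listed genes was called either. Of these 29 genes 0 were called in either direction by edgeR and 0 by DESeq2. One had an unadjusted edgeR P-value under 0.05, the glycogen targeting subunit PPP1R3C, with 0.22 ± 0.10 (SE) and P = 0.0475. Their median difference per alternate allele was 0.003 on the log2 scale, beside -0.001 over all genes. PFKM had 0.03 ± 0.10 (SE), PFKP -0.02 ± 0.07 (SE) and FBP2 0.14 ± 0.09 (SE).

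Markers of the tissue and of other cell types were examined in the same way. Brown adipocyte markers were present in every animal, and 6 of 10 listed had a SNP. UCP1 had the most reads of these, at 6878 to 20047 CPM, and CPT1B was lowest, at 14.6 to 23.4. The summed level of the 6 was 7704 to 20701. A level sums the reads over the counted SNPs of a gene, so it depends on their number and does not rank genes by abundance. Of 8 general adipocyte markers 4 had a SNP, with the most reads in ADIPOQ. Of 4 endothelial markers 3 had one, with the most reads in VWF. The only muscle marker with a SNP, DES, was between 11.5 and 196, the immune marker CD163 between 15.04 and 32.5 and STAR, a marker of steroid-making adrenal cells, between 30.5 and 58.2, while none of the 5 erythroid markers had a SNP. The Spearman correlation of each list's summed level with the PFKL level was 0.280 for brown adipocyte, -0.261 for adipocyte, 0.104 for muscle, -0.110 for endothelial, 0.009 for immune and -0.214 for kidney and adrenal markers. These sums follow the gene of each list with the most reads, and single markers differed from them. The endothelial KDR had -0.538 and the brown adipocyte marker EBF2 -0.426. By edgeR and by DESeq2 0 of the 16 markers were called against the genotype at 262418607, and 0 had an unadjusted edgeR P-value under 0.05. Their part in the PFKL differences was not tested.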

How the data were processed

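RNA from the PRAT of 18 fetuses was sequenced as paired end reads of 100 bp. The authors used STAR to place them on Oar v3.1, allowing up to 10 mismatches, called SNPs and genotypes from these RNA reads with GATK 3.4-46 (tools per the submitters' processing notes), and kept SNPs in genes where both alleles reached 10 reads in 5 or more animals. The deposited table holds unnormalized counts of reads with the reference and the alternate allele for each SNP and animal, with the genotype call, and 0 columns of the counts belonged to no sample. Its columns of the authors' own test, namely the statistic, its P-value, the higher allele and the share of reads to the reference, were not used. A few column names begin PS910 where the sample is titled RS910, and they were taken as that animal.

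Shares of reads were computed in animals called 0/1. AI was called at each SNP with a Poisson likelihood ratio test on reads summed over those animals, as in the study, at an unadjusted P-value under 0.05. Levels of a gene were the reads of both alleles over its SNPs. They were compared with the number of alternate alleles, and between sexes, in edgeR 4.0.16 (quasi-likelihood test, TMM scaling, filterByExpr) under R 4.3.3, with Benjamini-Hochberg adjustment over all genes. Alternatives used DESeq2 1.42.0, limma 3.58.1 and permutation tests, and other steps Python 3.11.15. Scripts were tested on simulated data. The gene, the gene lists and the tests were chosen with earlier results of these data known. Genes named besides PFKL were the other phosphofructokinase and fructose bisphosphatase genes, the 6 list genes farthest from and the 3 nearest to an equal share, neighbours within 500000 bp and the 5 genes with the most similar level. PFKFB3 and PFKFB4 were named with the phosphofructokinase genes, and PPP1R3C for its unadjusted edgeR P-value under 0.05. Markers were named as the one with the most reads in a list, the only one with a SNP, or one that differed from its list. CPT1B was named as the lowest brown adipocyte marker. Of 5810 gene names, 5251 matched a RefSeq symbol.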

Additional observations from a re-analysis of the deposited data

Results flagged for a closer look

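RS910 lay far from the other animals of its class in 1 comparison: among the 6 animals called 1/1 at position 262426420 its PFKL level was 4253 CPM (reads per 1000000), where the class median was 840. The gap to the nearest animal exceeded the 95% critical value of Dixon's test, which chance exceeds in about 1 of 20 groups, and 12 groups of shares and 29 groups of levels were tested, many of them repeating the same animals. RS910 was heterozygous at 9 PFKL SNPs, with the alternate allele higher at 1.

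Reads of the alternate allele made up 0.487% of the reads at 262418607 in animals called 0/0 (37 of 7605), which the allele shares of heterozygous animals do not use and which lies above the limit that a count of 0 allows. These reads are part of the PFKL level, and no other PFKL SNP had so high a share in its 0/0 animals. Their source was not tested.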

How the results depend on the processing

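PFKL was chosen by its AI, so the number of its SNPs called, 19 under each of the 6 alternatives, says nothing of stability. Of the 95 alternatives for reference shares, 60 could not change a share (the depth minimums, leaving out RS929, which is heterozygous at no PFKL SNP, and leaving out RS902 at the 3 SNPs where it is homozygous). In the other 35 each share moved by less than the spread between animals, by at most 0.133. The ratio of the highest to the lowest PFKL level was 7.75 with TMM scaled totals and 8.17 from the 1 PFKL SNP with the most reads. The difference per alternate allele at 262418607 was negative under all 12 alternatives. After adjustment it passed the threshold in the limma fit over all SNPs (-0.84, adjusted P-value 0.0258). The permutation test of the correlation gave P = 0.0028, beside a slope of -0.84 on the log2 scale per alternate allele. This P-value was not adjusted over genes, and is close to the unadjusted P-value of 0.0024 by edgeR. Homozygous animals alone, compared once their levels had been seen, differed by -0.93 per allele, which adds no independent test. Leaving out each animal in turn kept the limma value between -0.90 and -0.76, and the adjusted P-value exceeded 0.05 without RS929, RS943 or RS953. The sex difference was between -0.54 and 1.18 with each male left out. The PFKL level per alternate allele at 262416839 reversed from -0.18 to 0.11 with 0/1 and 0/0 animals only. The cause of these changes was not tested. No paired analysis was possible because the females and males share no replicate numbers. The limma fit and its repeats without each animal, the homozygous comparison, the level from 9 SNPs and the fits without RS929 were chosen after seeing the data. The tests of level rest on 3 animals called 1/1 and 2 males.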
